A study of Mus musculus with 9 samples.

Results

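The 9 genes described here encode enzymes that make, use or remove α-ketoglutarate (α-KG) and 2-hydroxyglutarate (2HG) and that are not lactate dehydrogenases. They are D2hgdh, Adhfe1, Idh1, Idh2, Idh3a, Mdh1, Mdh2, Ogdh and Dlst, and they were taken by gene name from the 55414 genes of the table. All 9 had counts and were among the 25128 genes tested. RNA was measured by poly(A)-selected, stranded RNA-seq in round spermatids (RS), the haploid cells that follow meiosis in the testis, with 3 libraries in each of 3 groups.

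The RS were sorted by FACS from testes of adult Stra8-Tom males on a C57Bl/6 background, in which Stra8-iCre switches on a tdTomato reporter in the germ line from spermatogonia onwards, and the labels give the genotype as WT. Every group therefore carried the Cre and the reporter, and every group was cultured for 24 h after the sort in medium with glutamine, lactate, pyruvate and dialyzed serum. The vehicle libraries (1 to 3) received 0.15% DMSO. The oxamate libraries (4 to 6) received 24 mM oxamate, a lactate dehydrogenase inhibitor, with 0.15% DMSO. The libraries with both compounds (7 to 9) received 24 mM oxamate together with octyl-L-2HG at 0.3 mM, in 0.15% DMSO. The octyl group makes this ester of L-2HG able to enter cells. The labels do not say whether the libraries of a group came from separate animals, so the p-values measure the spread between these libraries, which may be technical. The design asks what lowering L-2HG with oxamate does to the transcripts of RS, and what adding L-2HG back to such cells does. No group received octyl-L-2HG without oxamate, or another octyl ester. An effect of restored L-2HG therefore cannot be told apart from an effect of the added ester. Oxamate inhibits lactate dehydrogenases in general, so an effect of lower L-2HG cannot be told apart from other effects of that inhibition. The paper itself does not fully exclude energy imbalance.

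α-KG sits where the TCA cycle meets amino acid metabolism: isocitrate dehydrogenases make it, the 2-oxoglutarate dehydrogenase complex oxidizes it to succinyl-CoA, and it is the cosubstrate of the dioxygenases that demethylate histones and DNA. Its reduction gives 2HG, which competes with it at those dioxygenases and exists as 2 mirror forms, D-2HG and L-2HG. L-2HG arises as a side product of lactate and malate dehydrogenases, D-2HG mainly from hydroxyacid-oxoacid transhydrogenase and phosphoglycerate dehydrogenase, and a separate dehydrogenase oxidizes each form back to α-KG.

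The stretches upstream of 4 of the genes are shown because 3 of them, D2hgdh, Dlst and Mdh2, passed a test between groups and the fourth, Ogdh, encodes the partner subunit of Dlst. Each is the 250 bases before an annotated transcription start, from RefSeq on GRCm38.p6, written 5′ to 3′ along the gene. They lie at chr1:93824990-93825239 for D2hgdh, chr12:85110583-85110832 for Dlst, chr5:135778399-135778648 for Mdh2 and chr11:6291347-6291596 for Ogdh, all on the plus strand, and for Ogdh it is the first of 6 annotated starts. Capitals mark a cAMP response element (CRE, TGACGTCA, its own reverse complement) or a GC box (GGGCGG, or CCGCCC where it lies on the opposite strand), and the motifs do not overlap in these stretches.
D2hgdh: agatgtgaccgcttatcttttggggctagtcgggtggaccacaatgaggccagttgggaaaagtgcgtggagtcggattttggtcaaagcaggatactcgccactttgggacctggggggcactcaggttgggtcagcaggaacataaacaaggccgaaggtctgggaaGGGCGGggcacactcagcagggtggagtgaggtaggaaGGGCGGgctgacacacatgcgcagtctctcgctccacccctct
Dlst: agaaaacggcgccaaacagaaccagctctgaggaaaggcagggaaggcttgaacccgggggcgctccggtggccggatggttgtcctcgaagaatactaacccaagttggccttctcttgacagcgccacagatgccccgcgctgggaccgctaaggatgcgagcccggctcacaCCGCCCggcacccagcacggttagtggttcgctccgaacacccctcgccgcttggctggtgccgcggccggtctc
Mdh2: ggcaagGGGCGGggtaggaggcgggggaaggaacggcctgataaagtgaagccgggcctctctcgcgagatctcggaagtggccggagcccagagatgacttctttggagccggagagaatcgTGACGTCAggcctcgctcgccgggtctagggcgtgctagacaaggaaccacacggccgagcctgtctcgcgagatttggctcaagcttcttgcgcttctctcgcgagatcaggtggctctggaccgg
Ogdh: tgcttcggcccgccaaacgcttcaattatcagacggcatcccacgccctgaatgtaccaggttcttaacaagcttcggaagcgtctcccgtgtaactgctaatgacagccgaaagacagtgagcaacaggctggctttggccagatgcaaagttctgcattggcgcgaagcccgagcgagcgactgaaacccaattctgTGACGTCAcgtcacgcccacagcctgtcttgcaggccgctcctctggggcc

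Of the 9 genes, 7 had such a window. The CRE stood in the windows of Mdh2, beginning 127 bases before the start, and of Ogdh, beginning 51 bases before it, whereas 1.77% of the 27025 genes with windows held it in any window. A GC box stood in at least 1 window of all 7 genes, beside 35.4% of all genes. In D2hgdh it occurred at 81 and 43 bases before the start, in Dlst at 75 and in Mdh2 at 244. The 4 windows shown held 10 (D2hgdh), 23 (Dlst), 23 (Mdh2) and 18 (Ogdh) CpG dinucleotides, against a median of 6 over all windows. These are matches of letters only, and nothing in these data measured a factor at them.

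The libraries held between 32339533 and 39888396 counted reads. On the first 2 principal components of log2 CPM, of which the first held 25.6% of the variance, the 3 groups lay apart, with oxamate library 4 between the other oxamate libraries and those with both compounds. The label RS was checked against markers: all 8 round spermatid markers exceeded 10 counts, and their summed level was 1123 to 1468 CPM (counts scaled to library size), against 141 to 180 for 5 spermatocyte markers and at most 3.88 for spermatogonial, Sertoli, Leydig, peritubular myoid and macrophage markers. None of the 5 Sertoli markers exceeded 10 counts in any library. At these low levels the Leydig sum was lower in oxamate (0.555 to 0.767 CPM) than in vehicle (0.819 to 1.08) or with both compounds (0.866 to 1.09). The macrophage sum was 2.06 to 2.36 CPM in vehicle, 1.51 to 1.93 in oxamate and 1.39 to 2.18 with both compounds. The summed spermatid markers moved with the groups, from 1411 to 1468 in vehicle to 1222 to 1329 in oxamate and 1123 to 1169 with both compounds, and of the 8 markers 4 fell with oxamate (Prm1, Prm2, Tnp1 and Tnp2, the protamines and transition proteins that replace histones). With both compounds against vehicle 5 of the 8 fell, Tssk6 too, and Acrv1 rose. The fall of Tnp1 with oxamate lost its call without library 1 or 2 or in a fit of the compared groups alone (edgeR adjusted p up to 0.0953), and the rise of Acrv1 without library 1 or 9 or with total counts as the scaling (up to 0.0738). The part of this shift in the results below was not tested. In bulk RNA, fewer cells of a kind and less RNA per cell cannot be told apart.

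The levels of the 9 genes spanned a wide range after division by exon length. In TPM computed here over all genes with a length, Ogdh was the highest, at 68.5 ± 3.43 (SD over all 9 libraries), followed by Dlst at 23.9 ± 4.37 and Mdh2 at 13.2 ± 1.32. Idh1 (6.25 ± 0.618) and Idh3a (6.08 ± 0.870) did not differ beyond their spread: Idh1 was the higher in 6 of 9 libraries. D2hgdh followed at 2.12 ± 0.485, Mdh1 at 1.10 ± 0.284, Adhfe1 at 0.447 ± 0.109 and Idh2 at 0.362 ± 0.139. Each of the first 3 steps of that order, and the step from Idh3a to D2hgdh, held in every library with ranges apart. D2hgdh exceeded Mdh1 in 9 of 9 libraries and Mdh1 exceeded Adhfe1 in 8 of 9, with overlapping ranges, and Adhfe1 and Idh2 changed places between libraries. With the longest transcript as the length instead of all exons, Dlst rose to 56.9, Mdh2 to 23.4 and Idh3a to 9.56 while Idh1 was 6.02, so the order of Idh1 and Idh3a depends on that choice.

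**Figure D1:**
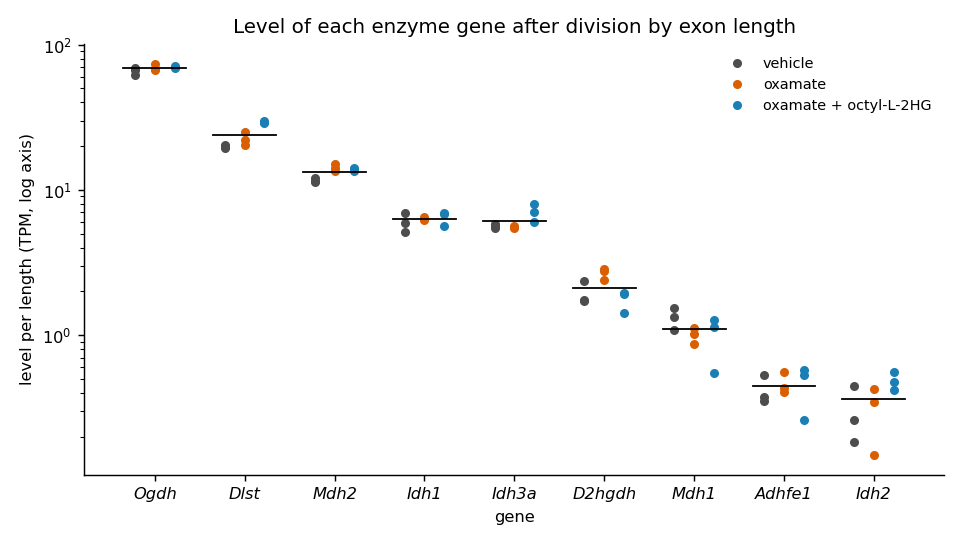
TPM of each gene, its level after division by merged exon length (log axis), 1 point per library coloured by group, with the mean over all 9 libraries as a black line. Ogdh (68.5) and Dlst (23.9) lie at the top and Adhfe1 (0.447) and Idh2 (0.362) at the bottom, where the points of neighbouring genes overlap.

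Levels of their partners and relatives, per merged exon length, lay above the members for some and below them for others. The partners were not recomputed with the longest transcript, which raised Dlst, Mdh2 and Idh3a, so the order and gaps given here are approximate. Mdh1b, a relative of the cytosolic malate dehydrogenase, stood at 301, against 1.10 for Mdh1 and 13.2 for Mdh2. The level of Mdh1 is uncertain, because it overlaps Wdpcp on the opposite strand and the strand setting of the counting is not given. Idh3b, a regulatory subunit of NAD-dependent isocitrate dehydrogenase, stood at 97.3, against 6.08 for the catalytic subunit Idh3a and 2.73 for Idh3g. Dld, the lipoamide dehydrogenase subunit shared by the 2-oxoacid dehydrogenase complexes, stood at 87.9, against 68.5 for Ogdh and 23.9 for Dlst, and Mrps36, another protein of the 2-oxoglutarate dehydrogenase complex, at 21.2. Ogdhl and Dhtkd1, relatives of Ogdh, were at 0.306 and 1.78. Among the other enzymes that can form 2HG, Ldhc, the testis-specific lactate dehydrogenase, stood at 8487 and Ldha at 1129, whereas Phgdh was at 0.681 and Ldhb at 0.200.

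In the comparison of oxamate with vehicle, none of the 9 genes passed the threshold, an adjusted p under 0.05 (edgeR quasi-likelihood F-test, Benjamini-Hochberg over all genes tested). Of all genes tested, 3.97% were called higher and 1.22% lower. At an unadjusted p under 0.05, 2 members were higher (Mdh2 and D2hgdh) and 0 lower, and DESeq2 called 1 (Mdh2). The shares of all genes hold for edgeR at the adjusted threshold only. Counts at an unadjusted p or with DESeq2 therefore have no background beside them and are not read as an excess. With both compounds against oxamate, Dlst and Idh3a were higher (2 of 9, beside 3.18% of all genes) and D2hgdh was lower (1 of 9, which is near the 8.06% of all genes). With both compounds against vehicle, Dlst, Idh3a and Mdh2 were higher (3 of 9, beside 7.48%) and none was lower, beside 10.6% of all genes. None was lower in DESeq2 or at an unadjusted p under 0.05 either. In the joint test of any difference among the groups, D2hgdh, Dlst, Idh3a and Mdh2 passed, 4 of 9 beside 19.8%. The median log2 fold change of the 9 members was 0.07 for oxamate against vehicle, 0.02 for both compounds against oxamate and 0.12 for both against vehicle, and over all genes tested it was -0.01, -0.04 and -0.05. The comparisons share libraries, so their values are given side by side only.

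**Figure D2:**
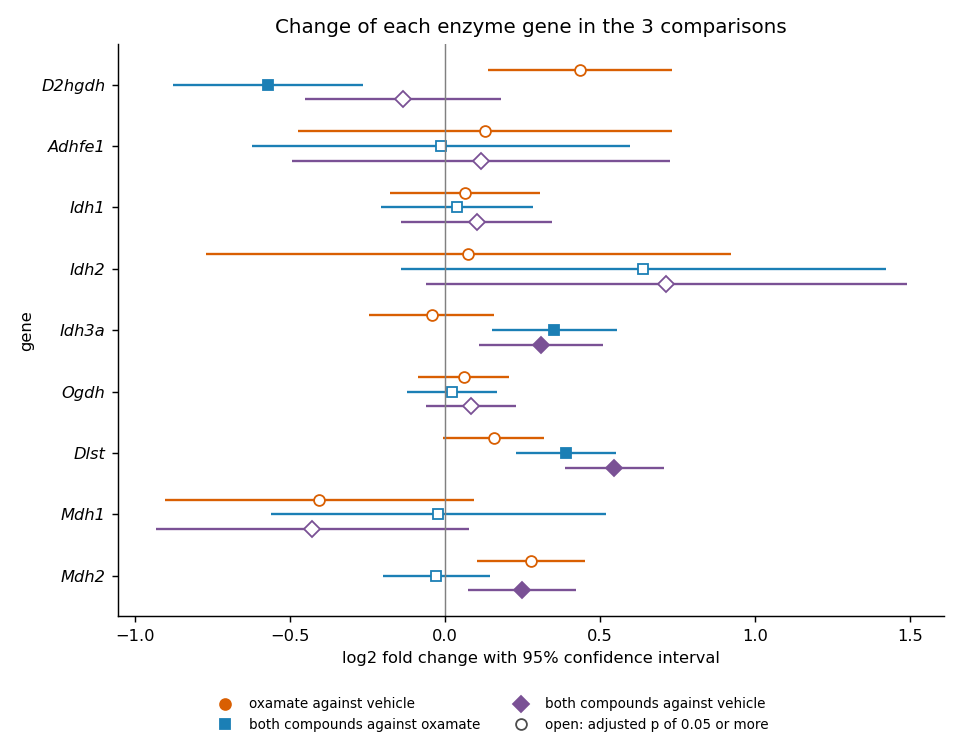
Log2 fold change of each gene (horizontal axis) with its 95% confidence interval from the edgeR fit, for 3 comparisons, filled where the adjusted p was under 0.05. Filled symbols stand at -0.57 for D2hgdh (both compounds against oxamate), at 0.35 and 0.31 for Idh3a, at 0.39 and 0.55 for Dlst and at 0.25 for Mdh2 (both against vehicle), and every oxamate against vehicle symbol is open.

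D2hgdh (ENSMUSG00000073609, chromosome 1) encodes the mitochondrial dehydrogenase that oxidizes D-2HG back to α-KG. Its normalized counts, which are counts divided by a size factor per library, were 87.1, 86.2 and 116 in vehicle libraries 1 to 3, 119, 134 and 138 in oxamate libraries 4 to 6, and 73.0, 98.0 and 95.5 in libraries 7 to 9 with both compounds. All oxamate libraries were above the other 6, vehicle library 3 came close to oxamate library 4, and vehicle overlapped with both compounds. Adding octyl-L-2HG to oxamate went with a fall of D2hgdh, at a log2 fold change of -0.57 (SE 0.15, 95% confidence interval -0.88 to -0.27, edgeR adjusted p = 0.0140). Against vehicle, oxamate gave 0.43 (SE 0.14, interval 0.14 to 0.73, edgeR adjusted p = 0.0863) and both compounds gave -0.14 (SE 0.15, interval -0.45 to 0.18, edgeR adjusted p = 0.607). The fall lost its call without oxamate library 5 (edgeR adjusted p = 0.0589) or library 7 (0.101), over a range of 0.00284 to 0.101 in all 16 alternatives. The difference between oxamate and vehicle gained a call without oxamate library 4 (edgeR adjusted p = 0.0271), without vehicle library 3 (0.0419) and with no filter on low counts (0.0477).

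Adhfe1 (ENSMUSG00000025911, chromosome 1) encodes hydroxyacid-oxoacid transhydrogenase, which forms D-2HG from α-KG while it oxidizes γ-hydroxybutyrate. It had 24.0, 15.2 and 16.5 normalized counts in vehicle, 19.1, 24.1 and 17.5 in oxamate, and 25.8, 11.5 and 23.4 with both compounds. The 3 groups overlapped. The log2 fold change was 0.13 for oxamate against vehicle (interval -0.47 to 0.73), -0.01 for both compounds against oxamate (-0.62 to 0.60) and 0.12 for both against vehicle (-0.50 to 0.73), with edgeR adjusted p-values of 0.888, 0.983 and 0.845. With 10 to 27 counts per library these intervals were wide, and the data do not decide between the values inside them. On the opposite strand it overlaps 2610203C22Rik, which averaged 4.42 normalized counts, and on the same strand Gm6161, which averaged 2.50.

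The enzymes that make α-KG from isocitrate came next. Idh1 (ENSMUSG00000025950, chromosome 1) encodes the NADP-dependent enzyme of the cytosol and peroxisomes and had 169, 221 and 190.5 normalized counts in vehicle, 202, 205 and 196 in oxamate, and 226, 182 and 222 with both compounds. Its groups overlapped, and the oxamate libraries lay inside the range of the other groups. The log2 fold change was 0.06 for oxamate against vehicle (interval -0.18 to 0.31), 0.04 for both compounds against oxamate (-0.21 to 0.28) and 0.10 for both against vehicle (-0.14 to 0.34).

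Idh2 (ENSMUSG00000030541, chromosome 7), the mitochondrial NADP-dependent enzyme, was close to the lower end of what was counted. It had 7.997, 13.3 and 5.49 normalized counts in vehicle, 10.5, 12.5 and 4.39 in oxamate, and 14.6, 12.7 and 16.9 with both compounds. The libraries with both compounds reached higher, with library 8 below vehicle library 2. The log2 fold change for both compounds against vehicle was 0.71 (SE 0.37, interval -0.06 to 1.49, edgeR adjusted p = 0.209), and against oxamate it was 0.64 (SE 0.38, interval -0.14 to 1.42, edgeR adjusted p = 0.330). From 4 to 18 counts per library, neither could be told from 0. Without vehicle library 2 the first was 1.10, and without oxamate library 6 the second was 0.34.

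Idh3a (ENSMUSG00000032279, chromosome 9), the catalytic subunit of the NAD-dependent isocitrate dehydrogenase of the TCA cycle, rose when octyl-L-2HG was added to oxamate. It had 329.6, 328 and 344 normalized counts in vehicle, 323, 319 and 328 in oxamate, and 366, 419.6 and 471 with both compounds. Vehicle and oxamate lay together within 319 to 344, and the libraries with both compounds were above all other 6 but spread widely among themselves (419 ± 52.4, SD, n = 3, against 323 ± 4.60 in oxamate). Its log2 fold change was 0.35 for both compounds against oxamate (SE 0.097, interval 0.15 to 0.55, edgeR adjusted p = 0.0208), 0.31 for both against vehicle (SE 0.096, interval 0.11 to 0.51, edgeR adjusted p = 0.0274) and -0.04 for oxamate against vehicle (interval -0.25 to 0.16). Against oxamate the call was lost without oxamate library 5 (edgeR adjusted p = 0.0801), library 8 (0.0739) or library 9 (0.152). Against vehicle it was lost without vehicle library 1 (edgeR adjusted p = 0.0643) or 2 (0.0808), without library 8 (0.0802) or 9 (0.193), and with total counts as the scaling (0.0872).

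Ogdh and Dlst encode subunits of the same complex, which oxidizes α-KG. Ogdh (ENSMUSG00000020456, chromosome 11), the subunit that decarboxylates α-KG, had 4327, 3869.6 and 4381 normalized counts in vehicle, 4706, 4221 and 4131 in oxamate, and 4526, 4472 and 4516 with both compounds. The groups overlapped. Its log2 fold change was 0.06 for oxamate against vehicle (interval -0.09 to 0.20), 0.02 for both compounds against oxamate (-0.12 to 0.17) and 0.08 for both against vehicle (-0.06 to 0.23), with edgeR adjusted p-values of 0.737, 0.896 and 0.479.

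Dlst (ENSMUSG00000004789, chromosome 12), the succinyltransferase subunit that hands the product to CoA, was higher with both compounds than in either other group. It had 2267, 2147 and 2267 normalized counts in vehicle, 2804, 2221 and 2391 in oxamate, and 3339.9, 3338 and 3225 with both compounds. The libraries with both compounds were above all other 6, and oxamate library 4 stood above the other oxamate libraries, which reached down into the vehicle range. It changed by a log2 fold change of 0.39 for both compounds against oxamate (SE 0.077, interval 0.23 to 0.55, edgeR adjusted p = 0.00214), which is 1.31-fold, and 0.55 for both against vehicle (SE 0.078, interval 0.39 to 0.71, edgeR adjusted p = 3.27e-05), which is 1.46-fold. For oxamate against vehicle it was 0.16 (SE 0.078, interval -0.01 to 0.32, edgeR adjusted p = 0.310), and 0.05 without oxamate library 4. Both calls held under each of 16 alternatives, with edgeR or DESeq2 adjusted p-values of 2.04e-07 to 0.0278 against oxamate and 1.80e-12 to 0.000713 against vehicle.

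The malate dehydrogenases interconvert malate and oxaloacetate and can reduce α-KG to L-2HG as a side reaction. Mdh2 (ENSMUSG00000019179, chromosome 5), the mitochondrial enzyme, had 507, 462 and 473 normalized counts in vehicle, 624, 574 and 544 in oxamate, and 599.7, 567 and 573 with both compounds. All vehicle libraries were below the other 6, and the other groups overlapped. The log2 fold change was 0.28 for oxamate against vehicle (SE 0.083, interval 0.10 to 0.45, edgeR adjusted p = 0.0564), 0.25 for both compounds against vehicle (SE 0.084, interval 0.07 to 0.42, edgeR adjusted p = 0.0425) and -0.03 for both compounds against oxamate (interval -0.20 to 0.14). The first of these gained a call from DESeq2 (adjusted p = 0.0498), from edgeR with the filterByExpr filter (0.0478) and without oxamate library 6 (0.0451). The call with both compounds was lost with total counts as the scaling (edgeR adjusted p = 0.126) and without library 2, 3, 5, 7, 8 or 9 (edgeR adjusted p = 0.131, 0.0938, 0.0555, 0.140, 0.0895 and 0.0960).

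Mdh1 (ENSMUSG00000020321, chromosome 11), the cytosolic enzyme, had 40.9, 45.5 and 32.1 normalized counts in vehicle, 33.3, 29.8 and 25.2 in oxamate, and 16.8, 38.0 and 33.7 with both compounds. The groups overlapped, and library 7 was the lowest of the 9. Its log2 fold change was -0.41 for oxamate against vehicle (SE 0.24, interval -0.91 to 0.09, edgeR adjusted p = 0.413) and -0.43 for both compounds against vehicle (SE 0.24, interval -0.93 to 0.08, edgeR adjusted p = 0.251). Without library 7 the value with both compounds against vehicle was -0.16. Mdh1 overlaps Wdpcp, which lies on the opposite strand and averaged 2656 normalized counts. The strand setting of the counting is not given in the sources used here, so reads of the overlap could have gone to either gene or been dropped, and the level of Mdh1 is uncertain.

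**Figure D3:**
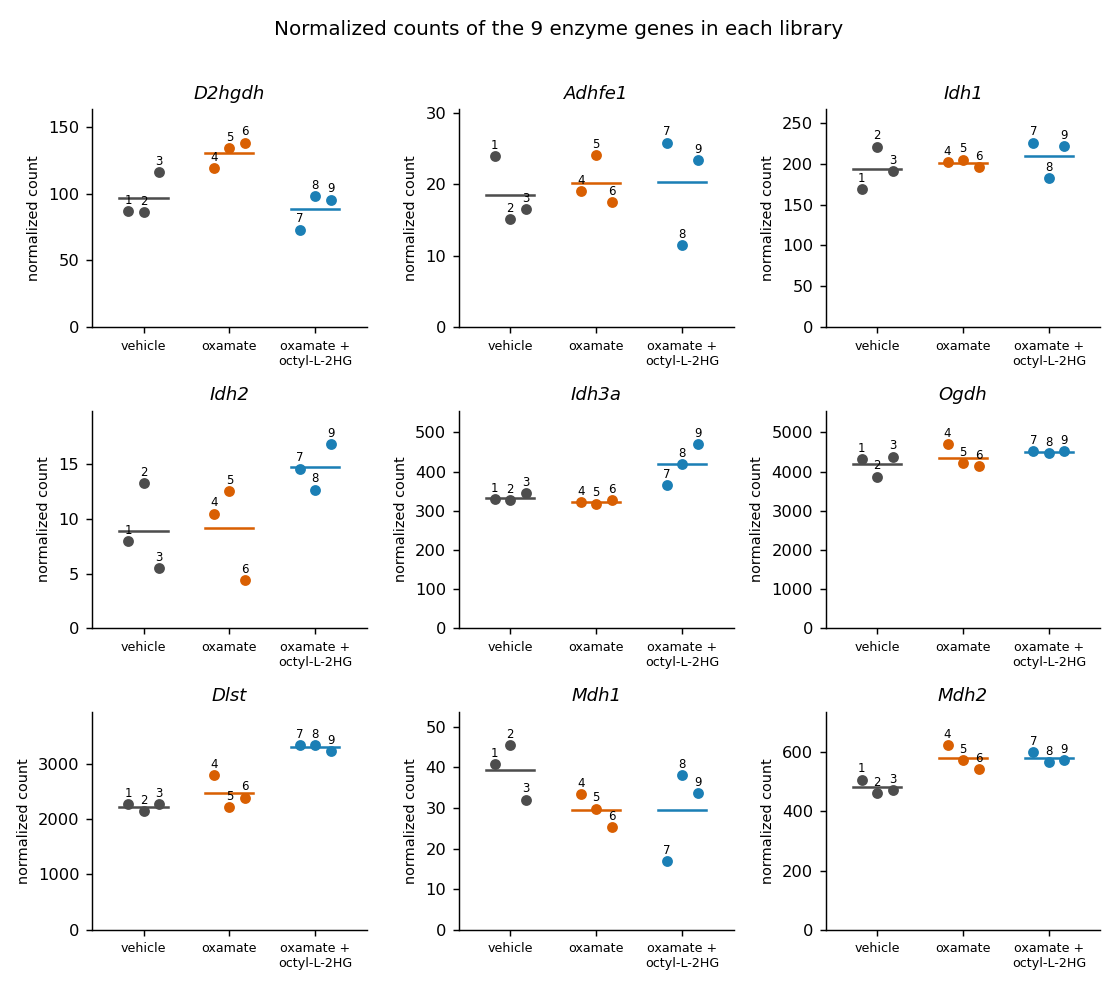
Normalized counts of the 9 genes by library (vertical axes start at 0), with library numbers beside the points and group means as lines. Dlst and Idh3a are highest in the 3 libraries with both compounds, D2hgdh is highest in the 3 oxamate libraries, and vehicle is lowest for Mdh2.

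Ratios of 2 members within a library do not depend on the scaling between libraries. Of 5 ratios, that of Ogdh to Dlst counts differed among the groups: its log2 value was 0.93, 0.85 and 0.95 in vehicle, 0.75, 0.93 and 0.79 in oxamate, and 0.44, 0.42 and 0.49 with both compounds. Every library with both compounds was below the other 6, and the mean was 0.91 ± 0.054 in vehicle, 0.82 ± 0.094 in oxamate and 0.45 ± 0.033 with both compounds (SD, n = 3 each). The exact permutation test of the F statistic over all 1680 assignments gave p = 0.00714, where 0.00357 is the smallest the design allows, and p = 0.0357 after Benjamini-Hochberg adjustment over the 5 ratios. The adjusted exact p was 0.0714 without vehicle library 1 or 3 and 0.0893 without oxamate library 4 or 6, and 0.0268 to 0.0357 without each of the other 5 libraries.

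The other 4 ratios did not pass. The log2 ratio of Mdh1 to Mdh2 was -3.62 ± 0.27 in vehicle, -4.31 ± 0.11 in oxamate and -4.38 ± 0.68 with both compounds (SD, n = 3 each, exact permutation p = 0.136, adjusted 0.304). Every oxamate library was below every vehicle library in that ratio, and library 7, at -5.15, stood below all others. Without library 7 the adjusted exact permutation p was 0.0268. The uncertain level of Mdh1, given above, also enters this ratio. For Idh1 to Idh2 the exact permutation p was 0.243, with the libraries with both compounds at 3.72 to 3.95 and the other 6 between 4.03 and 5.48. For Idh3a to Idh1 it was 0.221 and for D2hgdh to Adhfe1 0.575, both with overlapping groups.

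**Figure D4:**
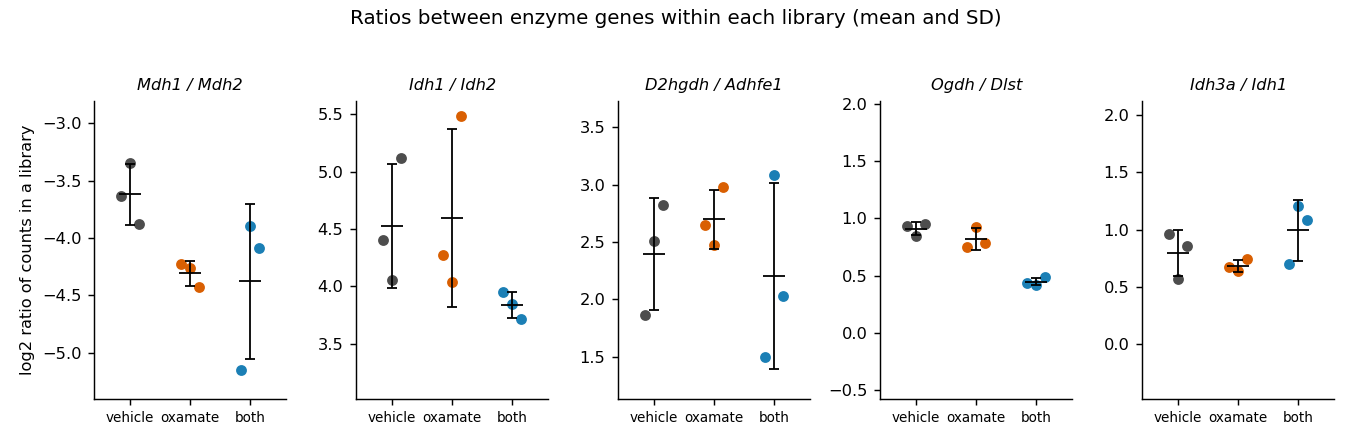
Log2 ratio of the counts of 2 genes within each library (vertical axes span the same range), 1 point per library, with mean and SD per group of 3. For Ogdh / Dlst the libraries with both compounds lie at 0.42 to 0.49, under the other 6, which lie at 0.75 to 0.95.

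The genes around the members were counted by lists. Of 13 other TCA cycle genes, none was called for oxamate against vehicle, 0 rose and 1 fell with both compounds against oxamate, and 1 rose and 2 fell against vehicle. Over all genes tested 8.06% fell against oxamate, and 7.48% rose and 10.6% fell against vehicle, so that these counts of 13 are near the background. The same shares are the background of the lists that follow, with 3.97% higher and 1.22% lower for oxamate against vehicle and 3.18% higher for both compounds against oxamate. Without oxamate library 4, 2 of the 13 were lower with oxamate, Sdhb and Sdhc (edgeR adjusted p = 0.0385 and 0.0409), and with both compounds against oxamate Sdhc was higher and Suclg2 lower (0.00553 and 0.0425). Dld gained a call against oxamate with DESeq2, its size factors, no filter or filterByExpr (adjusted p = 0.0209 to 0.0429). The one that fell in both was Fh1, fumarate hydratase, at -0.34 (SE 0.080, edgeR adjusted p = 0.00733) and -0.49 (SE 0.079, edgeR adjusted p = 0.000146). Its call against oxamate was lost without oxamate library 5 or library 7 (edgeR adjusted p up to 0.0647), and that against vehicle held in all 15 alternatives. Sdhb, the iron-sulfur subunit of succinate dehydrogenase, fell by 0.26 on the log2 scale and Dld rose by 0.20 (edgeR adjusted p = 0.0367 and 0.0441). The call of Sdhb was lost without library 1, 2, 7, 8 or 9 (edgeR adjusted p up to 0.191) and that of Dld without library 1, 3, 5, 7, 8 or 9 or with total counts (up to 0.187). The list's median log2 fold change was -0.03, 0.02 and 0.01 in the 3 comparisons in the same order, beside -0.01, -0.04 and -0.05 over all genes.

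Among the relatives and complex partners of the members (7 genes, 3 of them also on the TCA list), none was called with oxamate alone, and Mrps36 fell with both compounds, at -0.50 against oxamate (SE 0.11, edgeR adjusted p = 0.00384) and -0.62 against vehicle (SE 0.11, edgeR adjusted p = 0.000244). Its product holds the Dld subunit in the 2-oxoglutarate dehydrogenase complex. It went from 359 to 374 normalized counts in vehicle to 207 to 258 with both compounds, and both calls held in all 15 alternatives. Dld, given above, was the 1 gene of this list that rose with both compounds against vehicle. Of the transcripts of this complex, Dlst and Dld were called higher in that comparison, Mrps36 was called lower and Ogdh was at a log2 fold change of 0.08. Mdh1b, Idh3b, Idh3g, Ogdhl and Dhtkd1 were not called in any comparison, but Mdh1b was called higher with both compounds against oxamate with DESeq2, its size factors or filterByExpr and without oxamate library 4 (adjusted p = 0.0110 to 0.0464).

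Of 8 other 2-oxoacid dehydrogenase subunits, none was called with oxamate alone and 2 fell with both compounds. They were Pdha2 and Pdhb, which encode the testis-specific alpha and the beta subunit of the decarboxylase of pyruvate dehydrogenase, the enzyme that feeds pyruvate into the TCA cycle. Pdhb fell by 0.62 on the log2 scale against oxamate (SE 0.063, adjusted p over 15 alternatives with edgeR or DESeq2 of 1.69e-17 to 0.000172), from 3797 to 3909 normalized counts to 2525 to 2582. Pdha2 fell by 0.48 (SE 0.061, adjusted p over the same alternatives of 7.89e-12 to 0.000907), from 6574 to 6819.9 normalized counts to 4817 to 4933. Dlat, the acetyltransferase of that complex, and Pdhx, its binding component, were not called. Dbt, of the branched-chain complex, was called higher with both compounds against vehicle with no filter, in a fit of the compared groups alone and without library 9 (adjusted p = 0.0382 to 0.0427). The summed spermatid markers were lower in the same libraries, at 1123 to 1169 CPM against 1222 to 1329 in oxamate. In that comparison Prm1, Prm2, Tnp1, Tnp2 and Tssk6 were called lower. Acrv1, Spaca1 and Izumo1 were not called, at log2 fold changes of 0.19, 0.01 and -0.05. The part of the markers in the falls of Pdha2 and Pdhb was not tested.

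Of 14 genes of glutamate and α-KG exchange that could be tested, 1 rose and 1 fell with oxamate. Oat, ornithine aminotransferase, which uses α-KG as amino acceptor, rose by 0.46 on the log2 scale (SE 0.13, edgeR adjusted p = 0.0319), and with both compounds it was 0.41 below oxamate (log2 fold change -0.41, SE 0.13, edgeR adjusted p = 0.0378). It had 134 to 165 normalized counts in vehicle, 194 to 217 in oxamate and 129 to 183 with both compounds, so that its oxamate libraries lay above the other 6, as those of D2hgdh did. The rise was lost without library 1, 2, 3, 5 or 8 (edgeR adjusted p up to 0.129). The fall was lost without library 3, 5, 7 or 8, with DESeq2 and in a fit of the compared groups alone (adjusted p up to 0.217). Glul, glutamine synthetase, fell with oxamate (-0.32, SE 0.070, edgeR adjusted p = 0.00784) and was lower again with both compounds than with oxamate (-0.49, SE 0.072, edgeR adjusted p = 0.000133), and its calls held in all 15 alternatives. Got1, the cytosolic aspartate aminotransferase of the malate-aspartate shuttle, rose with both compounds against vehicle (0.24, SE 0.080, edgeR adjusted p = 0.0384), a call that was lost without library 2, 3, 5, 7, 8 or 9 and with total counts (adjusted p up to 0.205). Glud1 and Got2 were not called.

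Of the 4 other genes whose products can form 2HG, Phgdh fell with both compounds, by 1.20 on the log2 scale against oxamate (SE 0.35, edgeR adjusted p = 0.0282) and by 1.86 against vehicle (SE 0.31, edgeR adjusted p = 0.000194). Its enzyme, phosphoglycerate dehydrogenase, opens serine synthesis and can make D-2HG. Its level was low, at 26.6 to 34.7 normalized counts in vehicle, 13.5 to 22.9 in oxamate and 4.68 to 11.5 with both compounds, and the call against oxamate was lost without oxamate library 4 or 6 or library 7 or 9 (edgeR adjusted p up to 0.166). Ldha, Ldhb and Ldhc were not called in any comparison, at log2 fold changes of -0.11, -0.31 and -0.10 for oxamate against vehicle. Ldhc was called lower with oxamate without library 4 (log2 fold change -0.20, edgeR adjusted p = 0.0245), and with both compounds against vehicle without library 4, with total counts and in a fit of the compared groups alone (0.0123 to 0.0482).

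Genes with the most similar course were sought among the 10715 genes that averaged 100 or more normalized counts, by Pearson's r of log2 CPM over the 9 libraries, as a description that group means and shared depth also shape. For D2hgdh they were Anks3 (0.958), Dram1 (0.952) and Nfkb1 (0.951). For Idh3a they were 4930452G13Rik (0.968), Adam2 (0.966) and Zfp180 (0.959). For Mdh2 they were Gsk3a (0.993), Dnajb5 (0.988) and Pak4 (0.978), and for Dlst Card6 (0.991), Psmd7 (0.991) and Fhip2b (0.991). No gene was on more than 1 of these lists.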

How the data were processed

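The study counted poly(A) RNA reads in 9 libraries of cultured mouse RS. Per the labels and methods, reads were trimmed with cutadapt 2.10, aligned with TopHat2 2.1.1 to GRCm39 with Ensembl annotation and counted with HTSeq 2.01. The authors deposited unnormalized counts per gene and a normalized signal, the count divided by a DESeq2 1.36.0 size factor (0.867 to 1.13 here). Labels and methods name different sequencers. Groups came from the labels. Every gene with 10 or more counts in all entered the test of edgeR 4.0.16 (R 4.3.3, TMM, quasi-likelihood, all libraries in a single fit, Benjamini-Hochberg adjustment, threshold 0.05). That test was run on simulated data with a constant spread and with changes placed only in genes of higher counts. The simulation therefore does not cover changes in genes as low as Adhfe1, Idh2 and Mdh1. Ratios used exact permutation tests of F (upper tail). Exon lengths came from another annotation, matched by identifier for 99.6% of the genes tested, so levels per length are approximate. Promoters came from RefSeq on GRCm38.p6, and no coordinates were converted. Alternatives were DESeq2 1.42.0, other scalings, filters and thresholds, fits of the compared groups, and each library left out. Members and lists were chosen with earlier results of these data known. Named were all members, up to 3 called genes per list and comparison, the marker genes that moved, and the 3 most similar genes of each member with a difference among groups. Uncalled list genes were named after their values were seen. Another gene of 2HG breakdown is not reported here, and PDD libraries were not analysed here.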

Additional observations from a re-analysis of the deposited data

How the results depend on the processing

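Dlst kept its calls in every alternative, and of 63 recomputed counts of members called, 34 were equal to the count reported, 6 were higher and 23 lower. Of 45 recomputed ratios, 38 kept direction and side of the threshold, 1 gained a call, 4 lost it and 2 changed sign. For oxamate against vehicle the number of members called was 1 in place of 0 with DESeq2, with no filter on low counts and with filterByExpr, and 0 to 1 with a library left out. With both compounds against oxamate it was 3, 1 at an adjusted p under 0.01, and 1 to 3 with a library left out. Against vehicle it was 3, 1 with total counts as the scaling or under 0.01, and 1 to 3 with a library left out. For any difference it was 4, 2 with total counts, 1 under 0.01, and 2 to 4 with a library left out. The cause was not tested. Total counts moved the median of all genes to -0.11 for both compounds against vehicle, from -0.05. The log2 ratio of Ogdh to Dlst (both against vehicle) ranged from -0.49 to -0.44, of Mdh1 to Mdh2 from -1.0001 to -0.37 and of D2hgdh to Adhfe1 from -0.63 to 0.16 with a library left out. The fold changes that changed sign belong to comparisons in which the gene was not called. With both compounds against oxamate, Adhfe1 became 0.00779 with DESeq2, 0.0119 with its size factors, 0.0321 with no filter, 0.00531 with filterByExpr and 0.00882 with only the groups compared. Mdh1 became 0.00284 with DESeq2, 0.00293 with its size factors, 0.0227 with no filter and 0.000784 with only the groups compared. Mdh2 became 0.0162 with no filter, and Idh1 -0.00584 and Ogdh -0.0207 with total counts. For oxamate against vehicle with a library left out, Adhfe1 ranged from -0.0163 to 0.36, Idh1 from -0.0263 to 0.17, Idh2 from -0.21 to 0.46 and Ogdh from -0.00591 to 0.10. For both compounds against oxamate with a library left out, Adhfe1 ranged from -0.20 to 0.25, Idh1 from -0.0105 to 0.13, Mdh1 from -0.22 to 0.25, Mdh2 from -0.0773 to 0.0321 and Ogdh from -0.0178 to 0.0887. For both compounds against vehicle with a library left out, D2hgdh ranged from -0.21 to 0.0296 and Adhfe1 from -0.0659 to 0.38.
The libraries are numbered serially across the groups, and the labels do not say whether libraries of different groups share a sort or animal. No paired analysis was therefore made. Low counts limit Adhfe1, Idh2 and Mdh1, and the calls of D2hgdh, Idh3a and Mdh2 rest on differences that single libraries decide.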

Other observations

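Of 7 mitochondrial carriers of malate, citrate and α-KG, none was called with oxamate alone or with both compounds against oxamate, and 1 rose with both compounds against vehicle: Slc25a10, the dicarboxylate carrier, at a log2 fold change of 0.37 (SE 0.11, edgeR adjusted p = 0.0231), from 802 to 954 normalized counts in vehicle to 1115 to 1141. This call was lost without library 2, 3, 7, 8 or 9 (edgeR adjusted p up to 0.107). Of 8 genes of NADPH and malate metabolism, only G6pd2, a testis-expressed relative of glucose-6-phosphate dehydrogenase, was called, lower with both compounds against vehicle (-0.30, SE 0.086, edgeR adjusted p = 0.0168), and this call was lost without library 2, 3, 8 or 9 (adjusted p up to 0.107). Slc25a11, the α-KG and malate carrier, and Me1, cytosolic malic enzyme, were not called, at log2 fold changes of -0.12 and -0.12 for oxamate against vehicle. Without oxamate library 4, Slc25a10 was higher and G6pd2 lower with both compounds against oxamate (edgeR adjusted p = 5.06e-05 and 0.00275), and Me3, mitochondrial malic enzyme, was lower with oxamate (0.0463). Slc25a10 also gained that call with no filter on low counts (0.0153).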
